A study of Mus musculus with 10 samples.

Results

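The mouse Fc gamma receptor genes Fcgr1, Fcgr2b, Fcgr3 and Fcgr4 were examined together with Fcer1g, the gene of the signalling chain that the activating receptors share, in Hi-C loop lists of bone marrow-derived macrophages. Hi-C ligates stretches of DNA that touch in the nucleus and counts the joined reads, and a loop here is 1 listed pair of 10 kb bins with its whole-number count of contacts. The members are 5 of the 21728 protein-coding genes that GENCODE M21 places on the X chromosome and the autosomes. A loop was assigned to a member when an anchor bin overlapped the 100 kb on either side of its transcription start site (TSS). By that rule 364 of the 153264 bin pairs found in any list lay near a member. The rule used position alone.

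All cells came from wild-type female C57BL/6 mice aged 2 to 3 months and were differentiated with M-CSF at 20 ng/ml, with cytokines given on day 6. Untreated cells formed M0[CTR]. Cells polarized for 24 h with IL-4 at 20 ng/ml formed M2[IL-4], and M2p[pIL-4] cells were washed after the same polarization and rested for another 24 h. IFNG at 20 ng/ml was given for 3 h to unprimed cells (IFNG) or to washed and rested cells (pIL-4 + IFNG). Each group had 2 replicates but 1 loop list, in which both appeared to be merged, so replicates could not check any difference and every test compares 2 lists, not 2 conditions. Below, 5 values in a row stand for the lists in the order in which the groups were just named, which is called list order: M0[CTR] first, then M2[IL-4], M2p[pIL-4], IFNG alone and primed IFNG cells. The lists held 53424, 58260, 67728, 55012 and 67000 loops in list order, with a median of 32 contacts per loop in each. A bin pair absent from a list has no listed count, which is not a count of 0. Loop lists hold no expression, so the macrophage identity of the cells could not be checked against markers.

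Fc gamma receptors bind the constant part of IgG and let macrophages take up coated particles and respond to immune complexes. Fcgr1 encodes the high-affinity receptor, Fcgr3 and Fcgr4 encode activating receptors of lower affinity, and all of them need the common gamma chain encoded by Fcer1g, whose ITAM motif recruits the kinase Syk. Fcgr2b encodes the inhibitory receptor, which carries an ITIM motif and recruits phosphatases. IFNG is a classical inducer of Fcgr1 in macrophages.

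In GRCm38 the 3 low-affinity receptor genes lie in a row on chromosome 1, with Fcgr2b (ENSMUSG00000026656.15) at chr1:170958617-170976547 on the minus strand, Fcgr4 (ENSMUSG00000059089.4) at chr1:171018920-171029761 on the plus strand and Fcgr3 (ENSMUSG00000059498.13) at chr1:171051174-171064935 on the minus strand. Fcer1g (ENSMUSG00000058715.11) follows at chr1:171229572-171234365 on the minus strand, with its TSS 169.4 kb from that of Fcgr3. Fcgr1 (ENSMUSG00000015947.10) stands apart at chr3:96282909-96293969 on the minus strand. The windows on chromosome 1 overlap, and Fcgr3 shared 101 bin pairs with Fcgr4, 88 with Fcer1g and 73 with Fcgr2b. Values of these 4 genes are therefore not independent.

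All 5 genes lay in loop-dense neighbourhoods in all 5 lists. Fcgr3 had the most loops, with 107, 111, 121, 107 and 108 in list order. Fcer1g followed with 80, 90, 101, 88 and 104 loops. Fcgr4 had 76, 82, 85, 70 and 75 loops, and Fcgr2b had 58, 60, 67, 53 and 59. Fcgr1, alone on chromosome 3, had 54, 67, 56, 64 and 69. The median gene had 6 to 8 loops. The share of genes with fewer loops than the member ran from 91.5% (Fcgr1 in M2p[pIL-4]) to 99.6% (Fcgr3 in M0[CTR]). These numbers count single bin pairs, many of which touch one another, and the numbers with touching pairs merged, given below, are far lower. The rank of merged numbers among all genes was not examined. Fcgr3 was the highest of the 5 genes in every list, and the order of Fcgr1 and Fcgr2b changed from list to list. In total the members had 194, 219, 225, 206 and 232 loops.

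**Figure D1:**
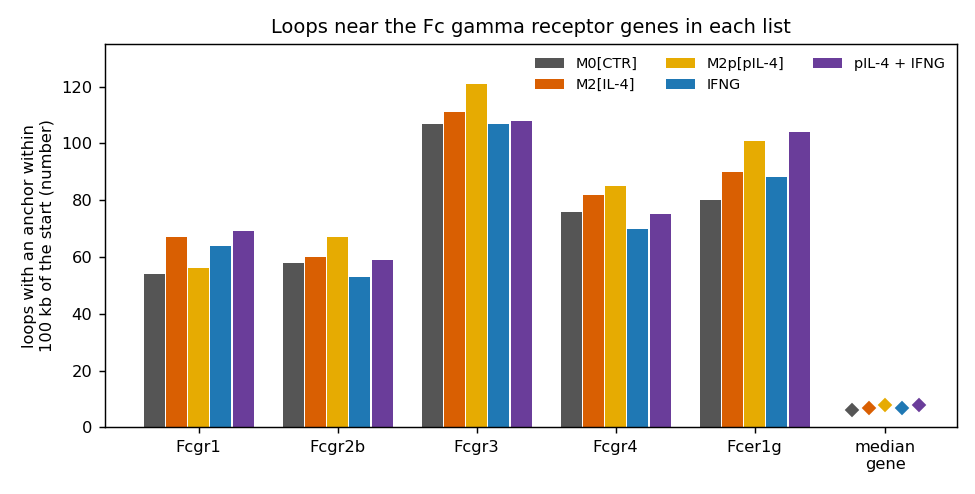
Loops with an anchor within 100 kb of the TSS (vertical axis, number) for each gene, 1 bar per loop list, with no error bars because there is 1 list per group. Diamonds give the median protein-coding gene in each list (6 to 8 loops), and all bars, from 53 to 121 loops, stand above them.

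The loops near the members also recurred between lists. Of the bin pairs found in any list, 42.3% of 163 at Fcgr3, 39.7% of 116 at Fcgr4, 38.5% of 91 at Fcgr2b and 32.7% of 153 at Fcer1g were in all 5 lists. Fcgr1 had the lowest share, 20.2% of 119. Over all 153264 bin pairs the share was 9.18%. These shares are a description of the lists and were not matched for span or contacts. Per list, the members' loops had a median span of 70 to 90 kb and a median of 49 to 55 contacts. All loops had a median span of 160 to 180 kb and a median of 32 contacts.

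On chromosome 1 most loops lay within a receptor block or within an Fcer1g block. The receptor block, chr1:170870001-171070000, runs from the end of Dusp12 through Fcrlb, Fcrla, Fcgr2b and Fcgr4 to Fcgr3. The Fcer1g block, chr1:171110001-171340000, runs from Cfap126 through Sdhc, Pcp4l1 and Fcer1g to Dedd. These limits were set after the loops had been seen and leave out 40 kb between the blocks. Loops with both anchors in the receptor block numbered 54, 56, 62, 49 and 52 in list order. Those with both anchors in the Fcer1g block numbered 64, 69, 78, 69 and 78. Only 2 bin pairs crossed from one block to the other in any list. The first joined chr1:170890001-170900000 to the Cfap126 bin, with 28 contacts in M2[IL-4] and 28 in M2p[pIL-4]. The second joined the same bin to the TSS bin of Fcer1g, with 22 contacts in pIL-4 + IFNG alone. The 40 kb between the blocks were joined to the receptor block by 8 bin pairs, with 3, 3, 4, 4 and 6 loops, and to the Fcer1g block by 13, with 6, 9, 8, 8 and 7 loops. The bin chr1:171100001-171110000 there had loops to both sides in all 5 lists. It had 48, 45, 56, 53 and 43 contacts with the bin at 170890001 and 45, 59, 50, 59 and 62 with the bin at 171250001 beyond Fcer1g, so the low number of direct crossings depends in part on where the limits were put. No bin pair in any list joined the TSS bins of 2 members.

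**Figure D2:**
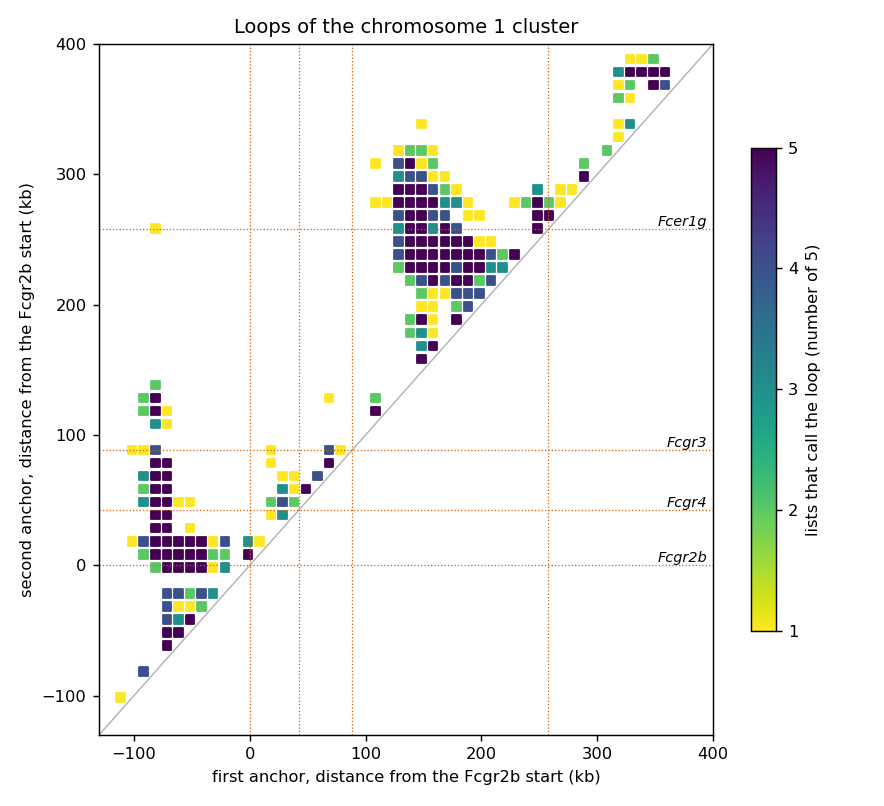
Each square is a loop of the chromosome 1 cluster, placed by the distance of its first (horizontal) and second (vertical) anchor from the Fcgr2b TSS in kb, and coloured by how many of the 5 lists called it. Dotted lines mark the TSS of Fcgr2b, Fcgr4, Fcgr3 and Fcer1g. Most squares fall into a receptor block and an Fcer1g block, with 2 bin pairs crossing directly between them and others ending in the 40 kb between.

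The TSS bin of Fcgr4 and a bin over the body of Fcgr3 were joined to the same pair of bins in every list. The TSS bin of Fcgr2b was joined to both of them in 2 lists only, and the TSS bin of Fcgr3 by GENCODE in no list. The bins chr1:170890001-170900000, which overlaps no protein-coding gene, and chr1:170900001-170910000, which overlaps Fcrlb, a gene of an Fc receptor-like protein, had the most loops of the block, with 12 to 15 per list each. The Fcrlb bin contacted the TSS bin of Fcgr2b with 98, 102, 104, 84 and 84 contacts in list order. The exact Poisson interval (95%) of the first count was 79.6 to 119 and that of the last 67 to 104. These counts were 1.68 to 2.17 times the median loop of the same span in the same list. Its strongest partner beyond 20 kb lay between Fcgr2b and Fcgr4, at chr1:170990001-171000000, with 139, 145, 145, 148 and 127 contacts. For the bin at 170890001, a loop to the Fcgr2b TSS bin was listed only for untreated cells (count 52) and after washout (count 56). Intervals here and below cover counting error only, since reads without molecular identifiers are not independent molecules.

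The Fcgr4 TSS bin, chr1:171010001-171020000, had 2, 4, 5, 3 and 4 loops in list order and was joined to both bins in every list. With the Fcrlb bin it had 57, 44, 62, 57 and 46 contacts in list order. With the neighbouring bin it had 67, 58, 89, 60 and 44. The second of these was highest in M2p[pIL-4] and lowest in pIL-4 + IFNG. The ratio of those 2 lists had the smallest p of any bin pair near a member, with a log2 ratio of -0.997 (95% interval -1.55 to -0.46, exact binomial test, p = 0.000161, adjusted p = 1 over 32335 bin pairs). It therefore did not pass the test.

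At Fcgr3 the body bin chr1:171050001-171060000 was joined to the same pair of bins in all 5 lists. It contacted the Fcrlb bin with 34, 37, 31, 34 and 33 contacts and the neighbouring bin with 39, 38, 46, 39 and 47. The TSS bin by GENCODE, chr1:171060001-171070000, had 3, 3, 3, 2 and 1 loops in list order, none of them with the Fcrlb bin. Of these, the loop to the bin at 170890001 had 25, 37, 31 and 25 contacts in the first 4 lists and was not called in the last, and the loop to the bin at 171040001 had 77, 67, 63 and 50 contacts and was not called in IFNG. RefSeq places the Fcgr3 start in the body bin, which had 3, 4, 3, 4 and 3 loops, so the lower numbers with IFNG did not hold for that start. In the GENCODE TSS bin 50.2% of 50-base words also occurred in another bin of the cluster, and in the next bin, which had no loop in any list, 67.9% did. The part of such repeated sequence in the missing loops was not tested. The bin over the middle of Fcgr2b, chr1:170960001-170970000, also had no loop in any list, with 1.8% repeated words.

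Fcer1g contacted the Cfap126 and Sdhc side of its block. Its TSS bin, chr1:171230001-171240000, had 7, 8, 6, 7 and 10 loops in list order. Contacts with the Cfap126 bin, chr1:171110001-171120000, were 54, 62, 48, 53 and 62, and with the bin over Cfap126 and Sdhc, chr1:171120001-171130000, they were 54, 43, 47, 67 and 48. Sdhc encodes a subunit of succinate dehydrogenase. The bin over the 3′ end of Fcer1g, shared with Apoa2 and Tomm40l, contacted the Cfap126 bin with 74, 58, 70, 87 and 78 contacts. No list stood apart from the other lists across these 3 loops.

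**Figure D3:**
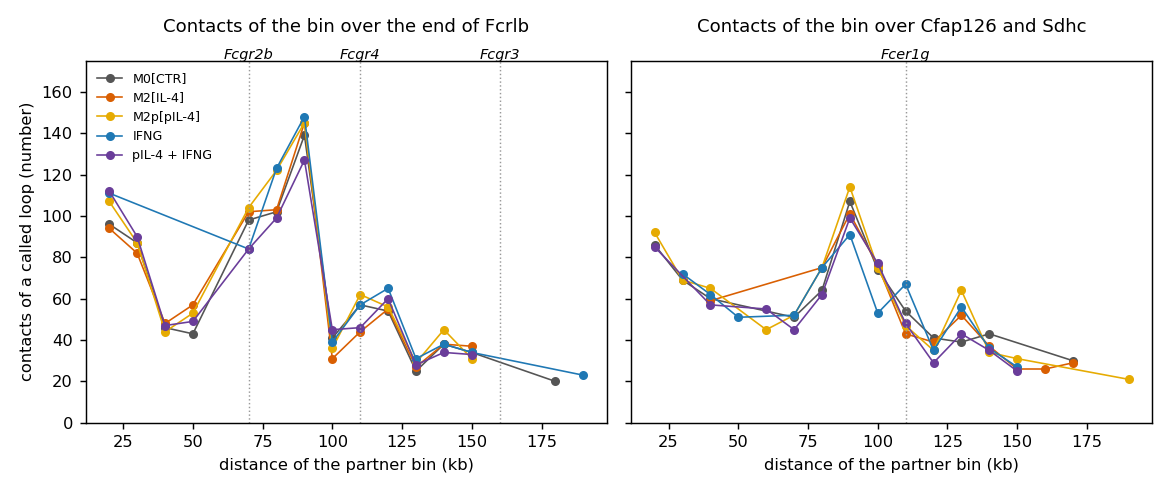
Contacts of called loops (vertical axis, number) against the distance of the partner bin in kb, for the Fcrlb bin (left) and the bin over Cfap126 and Sdhc (right), 1 line per loop list, with partners 20 to 200 kb away and dotted lines at the TSS bins of members. Lines join called loops only. The 5 lists follow the same profile, with the left peak at 127 to 148 contacts between Fcgr2b and Fcgr4.

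Several of these anchors held matches to the CTCF consensus, and the sequences are shown because the loops named above run between them. CTCF is a DNA-binding protein found at loop anchors, typically with its motifs pointing towards each other. A 14-base consensus was searched on both strands of GRCm38 with at most 1 mismatch. It occurred in 33 of the 103 anchor bins near a member (32%) and in 31.3% of the 70660 anchor bins of all lists, so a match as such was no more frequent near the members. Capitals mark the match, whose position is given, and each sequence is written along the strand of the motif.
Fcrlb bin, chr1:170900965-170900978, plus strand, 0 mismatches: aacagtgtCCACTAGGTGGCAGcatcagct
Fcrlb bin, chr1:170901776-170901789, plus strand, 0 mismatches: ccacatacCCAGCAGGTGGCGCtgttaccg
Bin before Fcrlb, chr1:170895460-170895473, plus strand, 1 mismatch: acttttagACACTAGATGGCGCcattcacc
Fcgr2b TSS bin, chr1:170977034-170977047, plus strand, 1 mismatch: gctgctacCCACTAGGTCGCAGaaaatctc
Bin between Fcgr2b and Fcgr4, chr1:170996955-170996968, minus strand, 1 mismatch: gcataaggACACTAGAGGGCACtgttcact
Cfap126 bin, chr1:171111144-171111157, plus strand, 1 mismatch: catgctggCCGCCAGGTGGCGCcctatact
Bin over the end of Fcer1g, chr1:171220998-171221011, minus strand, 0 mismatches: tttggcgtCCACCAGGGGGCACtgtgagat
The Fcrlb bin, the bin before it, the Fcgr2b TSS bin and the Cfap126 bin thus held plus-strand matches, and the strongest partner of the Fcrlb bin and the bin over the end of Fcer1g held minus-strand matches. The match in the bin over the end of Fcer1g lies within Tomm40l, and the other matches shown lie in no protein-coding gene. The bin between Fcgr2b and Fcgr4 and the Cfap126 bin each held 1 more match on the same strand as the one shown. The loop of the Fcrlb bin with the Fcgr2b TSS bin therefore joined matches of the same strand, and the Fcgr4 TSS bin and both Fcgr3 bins held no match. The Fcer1g TSS bin held a minus-strand match with 1 mismatch, at chr1:171238660-171238673, whose sequence is not shown. Its loop with the Cfap126 bin thus joined a plus and a minus match, while the bin over Cfap126 and Sdhc held no match. The bin at 171250001 held minus-strand matches. Over all loops near a member, 13 of 364 bin pairs (3.57%) had a plus match in the first anchor and a minus match in the second, against 7.9% of all bin pairs. The matches are letters in a bin, not measured binding.

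At Fcgr1 loops ran from the gene to bins from 96390001 onwards, which lie upstream of the TSS. The bin over the gene body, chr3:96280001-96290000, had 10, 13, 8, 10 and 9 loops in list order. Its loop to chr3:96430001-96440000, which overlaps BC107364, had 54, 65, 54, 49 and 57 contacts. The bin before the gene, which overlaps part of the histone gene Hist2h2bb, contacted the same bin with 44, 47, 45, 52 and 51 contacts. The TSS of Hist2h2bb and of the other histone genes lie before position 96270001. A single bin pair, with 18 contacts in M2p[pIL-4], joined a bin before that position to a bin from it onwards. Loops with both anchors from 96270001 onwards numbered 37, 48, 34, 45 and 45, and those with both before it 17, 19, 21, 19 and 24.

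The TSS bin of Fcgr1, chr3:96290001-96300000, was called mostly in M2[IL-4]. It had 0, 5, 2, 0 and 1 loops in list order. The 5 loops of M2[IL-4] reached bins starting at 96400001, 96410001, 96430001, 96440001 and 96470001, with 39, 39, 44, 22 and 25 contacts. Of these the loop to 96440001 was also called in M2p[pIL-4], with 20 contacts, and the remaining loops of that bin joined the adjacent bin, with 131 contacts in the M2p[pIL-4] list and 119 after primed IFNG treatment. Of 14172 genes with no TSS-bin loop in M0[CTR], 1721 had at least 1 in M2[IL-4]. At least 5, as at Fcgr1, were held by 21 of them (0.148%), of which 8 also had none in IFNG. Both conditions were taken from the values of Fcgr1 itself, so they do not measure how unusual it is. The genes were also not matched for loop density, and Fcgr1 had more loops in its window than most genes. The partner bins were not new to the neighbourhood. The gene body bin contacted bins from 96390001 onwards by 9, 10, 6, 7 and 6 loops, and within 25 kb each of the 5 TSS-bin loops had a match in M0[CTR]. The counts of those 5 loops were 0.667 to 1.29 times the median loop of the same span in that list.

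**Figure D4:**
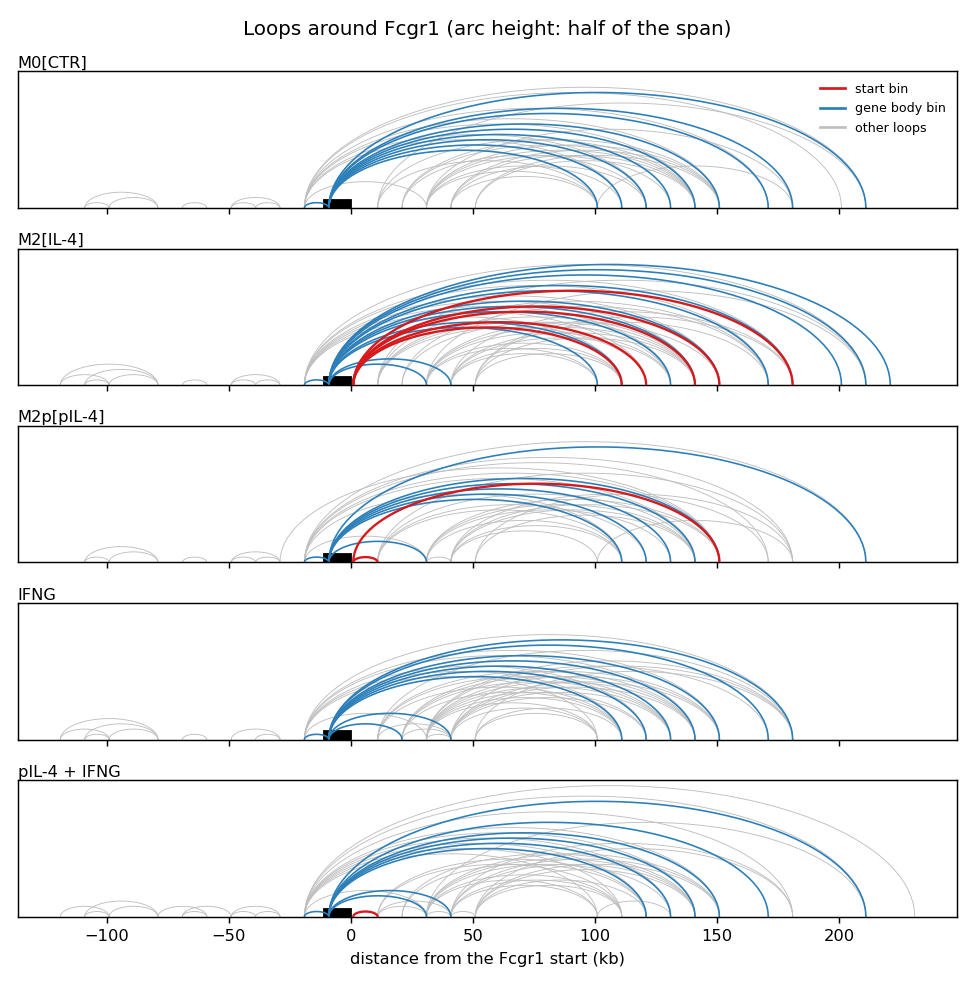
Loops around Fcgr1 in each list, as arcs between anchor bins, against the distance from the TSS in kb (the gene, black, is transcribed to the left and upstream lies to the right). Loops of the TSS bin are red (0, 5, 2, 0 and 1), those of the gene body bin blue and others grey. Loops with an anchor over 130 kb left or 230 kb right of the TSS are not drawn.

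With IFNG, 5 of the 64 Fcgr1 loops (7.81%) had no match within 25 kb in M0[CTR], against 13% of all IFNG loops. Of these, 3 shared the bin chr3:96330001-96340000, about 40 kb upstream of the TSS, with partners at 96300001 (65 contacts), 96310001 (52 contacts) and the adjacent 96320001 (119 contacts). The last of these had 119 contacts in the M2p[pIL-4] list and 128 with IFNG after priming, so it was also called without IFNG. The bin at 96330001 had 4, 6, 6, 10 and 9 loops in list order. Its loop to the BC107364 bin had 66 contacts in M0[CTR] and 39 in IFNG, a log2 ratio of -0.803 (95% interval -1.41 to -0.21, exact binomial test, p = 0.00688, adjusted p = 1 over 25079 bin pairs). The same loop had 41 contacts in M2[IL-4]. In the window of Fcgr1, 5 bins had no loop in any list, of which 4 were consecutive from 96350001 to 96390000, and in 3 of these 68% to 97.2% of 50-base words occurred in another bin of the window.

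The promoters of the members differed in their motifs. They are shown because IFNG and IL-4 act through STAT proteins and PU.1 is a factor of the myeloid lineage. The RefSeq sequence from 250 bases before to 50 after each start (GRCm38.p6) was searched on both strands for the letters TTCNNNGAA of the GAS element, to which STAT proteins bind, the related spacing TTCNNNNGAA and the PU box GAGGAA. A GAS match occurred only in the promoter of Fcgr1, as in 8.47% of 27025 promoters, and the longer spacing, held by 6.99% of promoters, in none of the members. The PU box occurred at Fcgr1, Fcgr3 and Fcgr4 and in 28.3% of promoters. Capitals mark the match, written along the strand of the gene, where the box reads as its reverse complement.
Fcgr1 GAS match, chr3:96294070-96294078, minus strand: ggatgtatTTCCCAGAAaagggaac
Fcgr1 PU box, chr3:96294019-96294024, minus strand: caacttccTTCCTCttttctaa
Fcgr3 PU box, chr1:171059404-171059409, minus strand: ccatttccTTCCTCtttttgta
Fcgr4 PU box, chr1:171018904-171018909, plus strand: ctatttacTTCCTCtcttctag
The GAS match began 109 bases before the start of Fcgr1 and lies in the TSS bin that had no loop in the IFNG list. A match is a description and not a bound site, and these letters were not found in these windows at Fcgr2b or Fcer1g.

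No member changed its loop number 2-fold between lists. Ratios were scaled by list length with 1 added to each number, and 12230 genes with a mean of at least 5 loops were compared. IL-4 against untreated cells gave log2 ratios from -0.07 (Fcgr2b) to 0.18 (Fcgr1), and 5.31% of genes passed 2-fold there. After washout the members lay between -0.28 (Fcgr1) and -0.01 (Fcer1g) relative to M0[CTR], and 3.25% of genes passed. Fcgr1 had the widest single difference of the 5 genes, with 56 loops in M2p[pIL-4] and 67 in M2[IL-4], a log2 ratio of -0.47, and 9.03% of genes were lower. That difference depended on how loops were counted, since with touching bin pairs merged into 1 loop Fcgr1 had 23 against 17 loops and a log2 ratio of 0.28. In that contrast 3.22% of genes passed. With IFNG the range was -0.17 (Fcgr2b) to 0.20 (Fcgr1), and 5.68% of genes passed. IFNG after priming gave -0.16 (Fcgr2b) to 0.31 (Fcgr1) relative to M2p[pIL-4], where 3.12% of genes passed. Relative to IFNG alone, primed IFNG cells ranged from -0.27 (Fcgr3) to -0.04 (Fcer1g), with 2.85% of genes past 2-fold, and relative to M0[CTR] from -0.34 (Fcgr4) to 0.05 (Fcer1g), with 4.6% past it. With touching bin pairs merged the members ranged more widely, from -0.93 (Fcgr4 in M2p[pIL-4] to M0[CTR], 7 against 12) to 0.80 (Fcer1g in M2[IL-4] to M0[CTR], 14 against 7). The members' count of 0 in each contrast thus stands beside backgrounds of a few percent, which for 5 genes is itself less than 1 gene.

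Contacts at loops called in both lists were tested by a two-sided exact binomial test, with Benjamini-Hochberg adjustment over all genes, and no member passed in any of the 7 contrasts. Fcgr2b had the smallest p, in the contrast of IFNG after priming with M2p[pIL-4], with 3650 against 3913 contacts at 50 bin pairs, a log2 ratio of -0.08 (95% interval -0.15 to -0.02, exact p = 0.0148, adjusted p = 1). Fcgr3 had -0.05 in the same contrast (exact p = 0.0369, adjusted p = 1). Against IFNG alone Fcgr2b had -0.08 (exact p = 0.0218, adjusted p = 1), and against M0[CTR] Fcgr3 had -0.06 (exact p = 0.0397, adjusted p = 0.909). Those 4 were the only unadjusted values under 0.05 among 35. Ratios were scaled by the total contacts at bin pairs called in both lists. All 5 genes had a log2 ratio of contacts below 0 in the 3 contrasts of pIL-4 + IFNG, which share that list. With scaling by the total contacts of each list in place of the shared bin pairs, all 5 members passed as lower in 5 contrasts, with log2 ratios from -0.40 to -0.13. The background of genes with adjusted p under 0.05 was 0.00754% for IL-4, 0% for washout against either list, 0.0913% for IFNG, 0.0216% for IFNG after priming, 0% for priming within IFNG and 0.156% for pIL-4 + IFNG against M0[CTR]. In the 3 contrasts at 0%, 415, 315 and 305 genes had an unadjusted p under 0.05. The intervals of the members' log2 ratios lay within -0.154 and 0.113 in every contrast. In simulated lists of the first contrast, over 13268 genes, 86% of genes with at least 1000 contacts over both lists and a 1.2-fold change were recovered, and 100% with a 1.5-fold change. In that simulation 2180 genes were called, against 1 in the real contrast, so its adjusted threshold was more lenient. These shares are therefore too high for a real change confined to few genes.

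**Figure D5:**
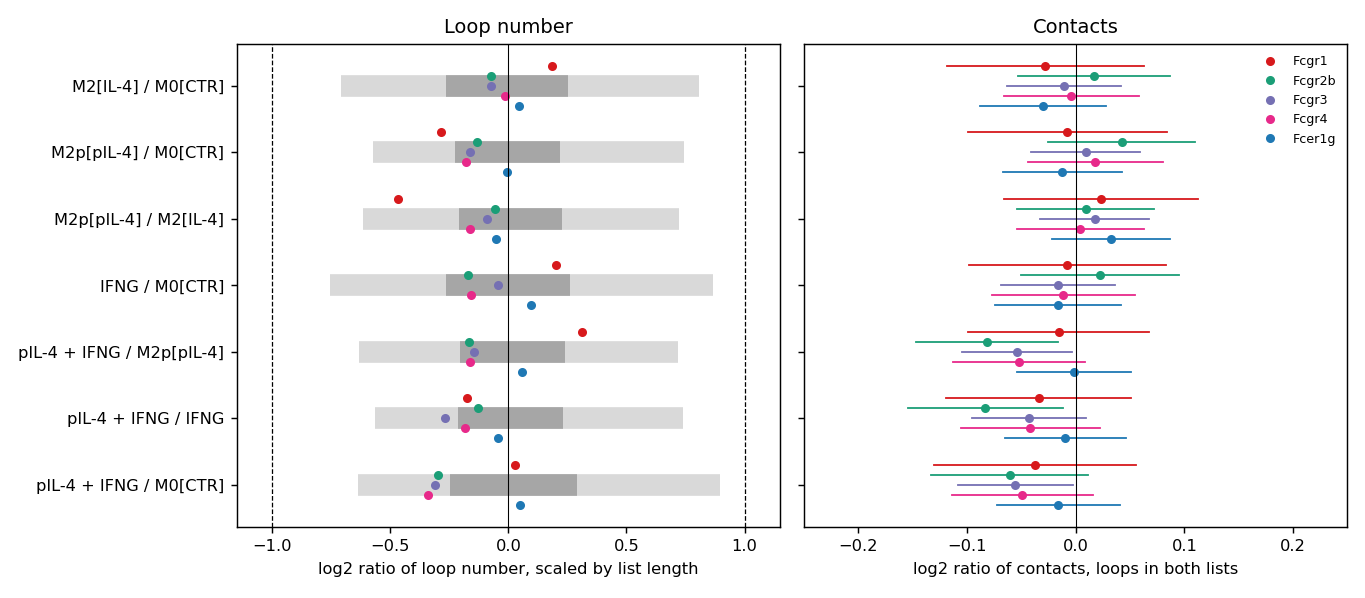
Left, log2 ratio of loop number scaled by list length for each gene and contrast (first list over second), over the middle 50% (dark) and 90% (light) of all genes, with dashed lines at 2-fold. Right, log2 ratio of contacts at loops in both lists with 95% intervals of counting error. All 35 loop ratios lie between -0.468 and 0.311, inside the dashed lines.

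None of the members' single loops passed the exact binomial test per bin pair in any contrast, with 1 to 7 of 143 to 172 bin pairs at an unadjusted p under 0.05. Over all bin pairs the background was 0% for IL-4, 0% for washout against either list, 0.00797% for IFNG, 0% for IFNG after priming, 0% for priming within IFNG and 0.0036% for pIL-4 + IFNG against M0[CTR]. In simulated lists 36.5% of bin pairs with 60 or more contacts over both lists and a 2-fold change were recovered, so that most changes of that size in a single loop would be missed at this depth. No difference in the IFNG effect was detected between primed and unprimed cells at any member by a test of the ratio of ratios. Fcgr2b was farthest from 0 with a log2 value of -0.14 (counting SE 0.06, exact conditional test, p = 0.01, adjusted p = 1), and 0% of 11787 genes passed, with 306 at an unadjusted p under 0.05.

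Loops were then sorted by calls, with both anchors matched within 25 kb, into classes that take the authors' names Transient, Memory and Primed. The authors' classes were clusters of loops with differential contacts, in which Primed loops were highest after washout. The classes here rest on presence or absence in the lists, so their numbers are not comparable with those of the authors. Near the members 193 of the 194 loops of M0[CTR] (99.5%) were kept in both the M2[IL-4] list and the M2p[pIL-4] list, against 86.2% of all loops. Of 219 loops in M2[IL-4], 1 was Transient (in M2[IL-4] alone of the 3 lists, 0.457%) and 2 were Memory (kept after washout, 0.913%), and of 225 in M2p[pIL-4], 2 were Primed (in that list alone, 0.889%). Over all loops these shares were 7.23%, 6.32% and 8.35%. Dense neighbourhoods offer more neighbours to match, and with the same bins required the members had 41 Transient (18.7%), 27 Memory (12.3%) and 45 Primed loops (20%) against 39%, 16.5% and 43.6% of all loops. The part of the density in the difference was not tested.

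With matches allowed within 25 kb, the low-affinity receptor genes had no loop of these 3 classes. Fcgr2b, Fcgr4 and Fcgr3 had 0 Transient or Memory loops among 124, which allows a share of up to 2.42%, and 0 Primed loops among 134, which allows up to 2.24%. These limits treat each bin pair as independent, which touching bin pairs are not, so they are too low. The loop of the Fcgr4 TSS bin with the adjacent bin over the gene had 202 contacts in M2[IL-4] and 181 in M2p[pIL-4]. It was not called in M0[CTR], IFNG or pIL-4 + IFNG, so it counted as Memory when the same bins were required. Within 25 kb, both Memory loops and the Transient loop of the set lay in the window of Fcer1g. They shared the bin chr1:171300001-171310000, between the genes Ufc1 and Dedd. The Memory loops joined it to the adjacent bin, with 76 contacts in M2[IL-4] and 97 in M2p[pIL-4], and to a bin over Tstd1, with 29 and 26. The pIL-4 + IFNG list held both bin pairs, with 103 and 24 contacts, and the IFNG list held neither. The Transient loop joined the bin to Arhgap30 with 38 contacts. One of the Primed loops also started from this bin, and the other was the adjacent loop of the bin at 96330001 upstream of Fcgr1. With IFNG after priming, 3 of 163 loops of the chromosome 1 cluster (1.84%) had no match in M2p[pIL-4], against 11.4% of all loops of that list, and among them was the loop to the Fcer1g TSS bin named above.

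Related genes were examined as 2 lists. Of 13 other Fc receptor and receptor-like genes, 12 had a mean of at least 5 loops and 1 passed 2-fold in any contrast, beside 2.85% to 5.68% of all genes per contrast. That gene was Fcer2a, which encodes the low-affinity IgE receptor CD23, with 6, 9, 17, 9 and 7 loops in list order. Its log2 ratio of loop number was 1.05 for M2p[pIL-4] against M0[CTR] and -1.14 for pIL-4 + IFNG against M2p[pIL-4], beside 3.25% and 3.12% of all genes past 2-fold, and its contacts did not pass the test. Fcrl6, an Fc receptor-like gene, lay just below 2-fold with 11 loops in M2[IL-4] against 21 in M0[CTR] (log2 ratio -0.996). The list's median log2 ratio was -0.002 for IL-4, -0.10 for washout against M0[CTR] and 0.26 against M2[IL-4], -0.08 for IFNG, -0.18 for IFNG after priming, -0.26 for priming within IFNG and -0.33 for pIL-4 + IFNG against M0[CTR]. The median of all genes lay between -0.03 and 0.01 in these contrasts. Fcrla and Fcrlb belong to both the list and the receptor block and had nearly the same loop numbers. Other genes of the list had identical numbers in all 5 lists, so the median counts some loci more than once and its genes are not independent. In the contact test no gene of the list passed in any contrast, with 0 to 4 genes at an unadjusted p under 0.05.

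Of 30 genes of Fc receptor signalling and phagocytosis, 28 had a mean of at least 5 loops and none passed 2-fold, beside the same 2.85% to 5.68% of all genes. In the contact test 1 of 28 tested was higher in M2[IL-4] than in M0[CTR], none was lower, and none passed in the other 6 contrasts, in which 0 to 2 genes had an unadjusted p under 0.05. That gene was Syk (ENSMUSG00000021457.14), the kinase that binds the Fcer1g chain, and it was the only one of 13268 genes to pass in this contrast. At 44 bin pairs called in both lists Syk had 1355 contacts in M2[IL-4] and 1116 in M0[CTR], a log2 ratio of 0.28 (95% interval 0.17 to 0.40, exact binomial p = 1.48e-06, adjusted p = 0.0197). M2p[pIL-4] against M0[CTR] gave 0.15 (exact p = 0.0144, adjusted p = 1), and IFNG against M0[CTR] gave 0.13 (exact p = 0.0303, adjusted p = 1). At the 18 bin pairs near Syk that all lists called, contacts were 484, 605, 578, 570 and 592 in list order, so that M0[CTR] was the lowest. The call did not hold in narrower windows, where the log2 ratio was 0.14 within 50 kb (exact p = 0.0874, adjusted p = 1) and 0.20 within 25 kb (exact p = 0.111, adjusted p = 1). It was also lost at the 18 bin pairs of all 5 lists, where the log2 ratio was no smaller (0.32, 95% interval 0.15 to 0.50, exact p = 0.000241, adjusted p = 0.304), and with scaling by all contacts of the lists (log2 ratio 0.13, adjusted p = 0.0953), and it held with at least 50 contacts (adjusted p = 0.0188) and without adjacent bins (adjusted p = 0.0301).

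Genes over 1 Mb away with the most similar course of loop number over the 5 lists were named by the root mean square difference of centred log2 values. For Fcgr1 these were Lhx6, Spint2 and Ppp1r14a (0.03 each), for Fcgr2b Adamts1, Gm33543 and Spg7 (0.02 to 0.03), and for Fcgr3 Rhof, Map3k14 and Mboat1 (0.02 each). For Fcgr4 they were Rfng, Gps1 and Gdf15, and for Fcer1g Gm3336, Rnase10 and Dap3 (0.02 each). With 5 lists such likeness is a description.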

How the data were processed

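Hi-C samples were grouped by their titles into 5 groups of 2 replicates. Per the authors' methods, reads were processed with nf-core/hic (HiC-Pro, bowtie2), and the labels name mm10, Juicer and HOMER. The deposited lists gave whole-number counts of contacts per pair of 10 kb bins, with no apparent normalization. The methods describe HICCUPS loops at 25 kb on balanced maps, whereas these lists hold 10 kb bins, so which caller and threshold made them stayed unclear. Unlisted pairs were treated as not called. Loop numbers near each TSS (GENCODE M21, 100 kb, mean of at least 5 loops), exact binomial tests of contacts (at least 10 per gene, Benjamini-Hochberg) and loop classes (25 kb) were computed in Python 3.11.15 (scipy 1.17.1, pysam 0.24.0, matplotlib 3.10.9, pandas 2.3.3, numpy 2.4.6), and the tests were tested on simulated data. The contact test is scaled at bin pairs called in both lists. The 5 members were named always, list genes only past 2-fold or the test, with Fcrl6 added after its values were seen, other genes where an anchor overlapped them, and loops by TSS bin. Blocks and shared bins were picked afterwards. The members and lists were chosen with earlier results of these data known. Alternatives were narrower windows, merged or shortened lists, other scaling, pseudocount, fold and filters, and the RefSeq start of Fcgr3, chosen after seeing the data.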

Additional observations from a re-analysis of the deposited data

How the results depend on the processing

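No paired analysis was possible because there was 1 loop list per group, with no values per replicate, and leaving out a replicate was not possible either. The count of members past 2-fold in loop number stayed 0 in all 7 contrasts with windows of 25 and 50 kb, touching bin pairs merged, lists cut to the shortest, no scaling, a pseudocount of 5, a 1.5-fold threshold, adjacent bins left out and no filter. The number of all genes past the fold ranged from 56 with a pseudocount of 5 to 3063 with no filter, against 349 to 695 in the reported setting. Of the members' 35 log2 ratios of loop number, 9 left their counting interval with touching bin pairs merged, where they ran from -0.93 to 0.80 against -0.47 to 0.31 as reported, and Fcer1g in M2[IL-4] to M0[CTR] went from 0.04 to 0.80. The count of members past the contact test stayed 0 with windows of 50 and 25 kb, at least 50 contacts, bin pairs of all 5 lists and adjacent bins left out. With scaling by the total contacts of each list it became 5 in the contrasts of M2[IL-4] to M0[CTR], M2p[pIL-4] to M0[CTR], M2p[pIL-4] to M2[IL-4], pIL-4 + IFNG to IFNG and pIL-4 + IFNG to M0[CTR], all of them lower with log2 ratios from -0.40 to -0.13, and up to 8817 of all genes then passed in a contrast. That scaling counts the contacts of loops called in 1 list only, so a longer list lowers every shared loop. With the same bins required, the members had 41 Transient, 27 Memory and 45 Primed loops, 63 gained with IFNG and 60 gained with IFNG after priming, against 1, 2, 2, 6 and 4 within 25 kb, and 0, 0, 0, 1 and 1 within 50 kb. The lists give only called loops, so contacts below each list's threshold, of which the smallest listed was 5, cannot be compared.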
